A study of Mus musculus with 15 samples.

Results

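The 10 genes described here encode the chromatin writers and adaptors that surround menin, KMT2A, DOT1L and the NSD family of histone H3 lysine 36 methyltransferases: Kmt2a, Men1, Psip1, Dot1l, Mllt1, Mllt3, Kat7, Nsd1, Nsd2 and Nsd3. They were picked by gene name, and all 10 were found among the 38315 genes of the table and kept among the 18941 genes tested. RNA was sequenced in bulk from 15 mouse bone marrow samples in 3 groups. The first group was 7 marrows with acute myeloid leukaemia (AML) from NUP98-NSD1/FLT3-ITD transgenic mice. The second was 4 whole marrows from wild-type mice, and the third was 4 wild-type marrows described as lineage negative, a term for marrow depleted of cells that carry markers of mature blood lineages. The promoters that drive the 2 transgenes, the ages of the mice, the depletion method and whether whole and lineage-negative marrow came from the same mice are not given in the sources used here. The AML samples were not depleted according to their labels, so cell makeup differs between the groups by design. The p-values weigh a difference between groups against the spread between these samples. That spread was estimated for each gene from all groups together, even where the group SDs given below differ. Whole marrow libraries therefore also enter the p-values of AML against lineage-negative marrow. In bulk RNA, fewer cells of a type and less RNA per cell cannot be told apart.

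Menin, the product of Men1, holds the histone H3 lysine 4 methyltransferase KMT2A and the chromatin reader LEDGF, made from Psip1, in a single complex on promoters of genes such as Hoxa9 and Meis1. DOT1L methylates histone H3 lysine 79 in transcribed genes and is brought there with ENL (Mllt1) and AF9 (Mllt3), paralogous YEATS-domain readers of acylated histones that also join the super elongation complex. KAT7, also called HBO1, acetylates histone H3, and NSD1, NSD2 and NSD3 write mono- and dimethylation of lysine 36. NUP98-NSD1 fuses a nucleoporin to the catalytic end of NSD1, and menin, KMT2A and DOT1L are studied as partners on which NUP98-fusion leukaemias depend. Whether reads of the fusion transcript were counted under Nsd1, or those of the FLT3-ITD transgene under Flt3, was not analysed here.

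The estimated depth was 20.3 to 35.1 M reads in AML (M for mega), 11.4 to 17.2 M reads in whole marrow and 20.3 to 28.1 M reads in lineage-negative marrow. The deposited normalized counts placed the median gene 0.67 higher on the log2 scale in AML than in whole marrow and 0.59 higher in lineage-negative than in whole marrow. They were therefore rescaled by the trimmed mean of M values (TMM), after which these medians were −0.01 and −0.09, and the values below are rescaled counts unless the deposited scaling is named. The rescaling multiplied whole marrow library 1 by 2.14 and the other libraries by 0.83 to 1.26. Signal from olfactory and vomeronasal receptor genes, a measure of low-level background per kilobase of exon, was 1.90 to 3.59 in whole marrow, 0.102 to 0.133 in lineage-negative marrow and 0.124 to 1.01 in AML. Summed over 11 erythroid marker genes tested, whole marrow held 1739510 to 2513580 rescaled counts, lineage-negative marrow 27454 to 59680 and AML 388 to 29743. The sum of 13 neutrophil granule genes was 935285 to 1498090 in whole marrow, 99675 to 175300 in lineage-negative marrow and 429517 to 1270650 in AML. The sum of 10 stem and progenitor genes was 5448 to 6779 in whole marrow, 15362 to 19119 in lineage-negative marrow and 2621 to 5068 in AML. The low erythroid and neutrophil sums and the high progenitor sum of the lineage-negative libraries go with their label. By gene, 9 of the 13 neutrophil genes were called lower and 3 higher in lineage-negative than in whole marrow. The sum of 9 eosinophil, basophil and mast cell genes was 31613 to 53904 in lineage-negative and 50966 to 68314 in whole marrow. Of these 9 genes 4 were called higher and 3 lower in lineage-negative marrow. For 10 monocyte and macrophage genes the sum was 53111 to 83480 in AML, 27446 to 37014 in whole and 9411 to 15645 in lineage-negative marrow. By gene, 4 of these 10 were called higher and 1 lower in AML than in whole marrow, and all 10 higher than in lineage-negative marrow. These sums differ between the groups beside every comparison below, and their part in the results was not tested.

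Comparing AML with lineage-negative marrow, 8 of the 10 genes were lower in AML and 1, Nsd3, was higher, against 25.5% of all genes tested that were lower and 26.1% that were higher (limma, Benjamini-Hochberg adjusted p under 0.05 over all genes tested). With the deposited scaling 5 were lower and 1 was higher, with backgrounds of 21.6% and 23.5%, and without lineage-negative library 1 the number lower was 4. Leaving out any 1 library, 4495 to 4868 of all genes were lower, beside 4832 in the full fit. Comparing AML with whole marrow, Psip1 and Mllt3 were lower and no gene was higher by limma, at an unadjusted p under 0.05 as well (0 genes), with backgrounds of 20.9% lower and 16.9% higher. That comparison rests on the scaling: with the deposited values 8 genes were higher and 0 lower (1 lower at an unadjusted p under 0.05), where 51.5% of all genes were higher and 12.0% lower. Comparing lineage-negative with whole marrow, 6 genes were higher and Nsd3 was lower, with backgrounds of 24.9% and 31.5%. The deposited scaling gave 8 higher and 0 lower there by limma (also 0 at an unadjusted p under 0.05), with backgrounds of 44.3% and 18.9%. The median log2 difference of the 10 genes was −0.46 for AML minus lineage-negative, 0.14 for AML minus whole and 0.46 for lineage-negative minus whole marrow, beside 0.03, −0.01 and −0.09 over all genes tested. The library ranges did not overlap for 2 of the 10 genes in AML against whole marrow, beside 26.01% of all genes. For AML against lineage-negative marrow these were 3 genes and 35.21%, and for lineage-negative against whole marrow 3 genes and 53.91%. Complete separation was thus no more frequent among the 10 genes than among all genes tested. The 3 comparisons share their groups, so their counts are not separate pieces of evidence.

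**Figure D1:**
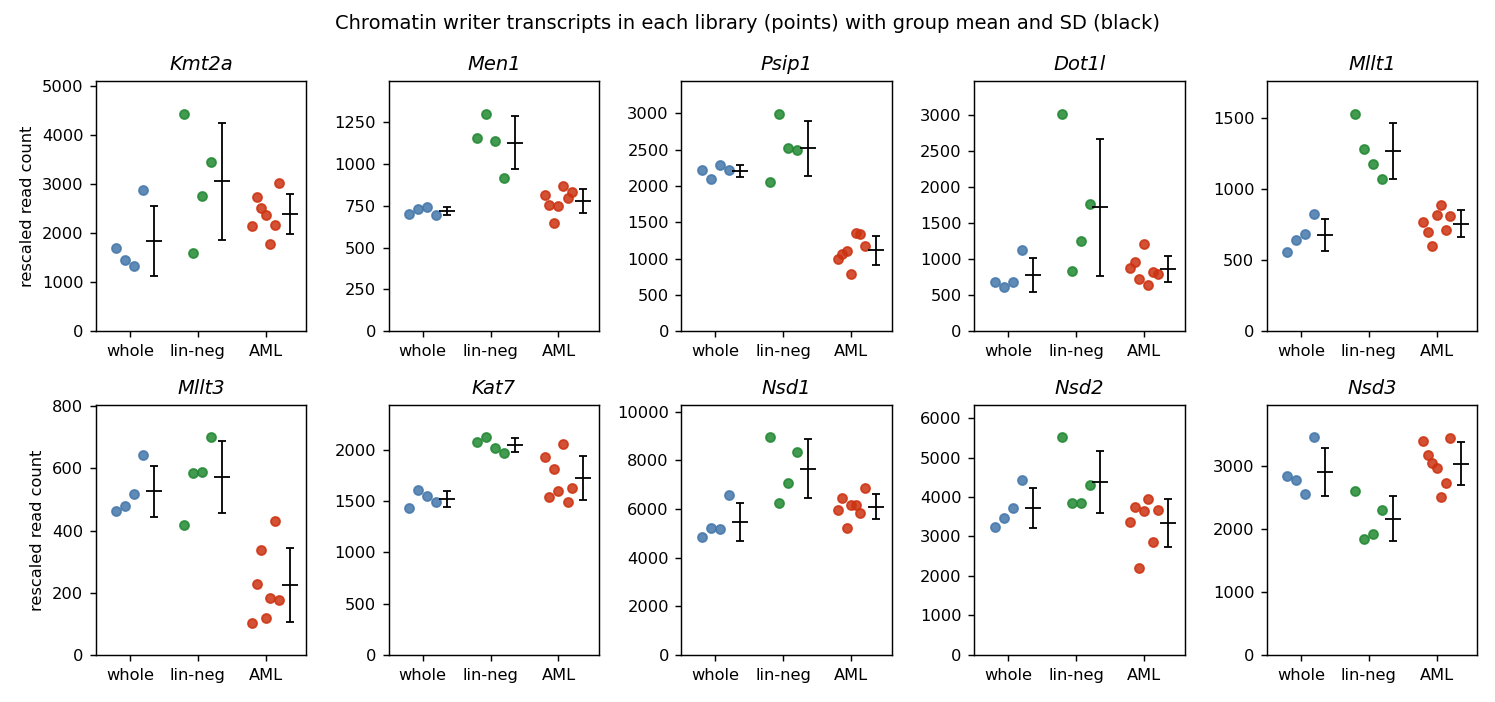
Rescaled read count of each of the 10 genes (y axis, 1 panel per gene, from 0) in every library of whole marrow, lineage-negative marrow and AML, with group mean and SD. Psip1 was 784 to 1353 in the AML libraries and at least 2057 in every normal library, while Nsd3 was lowest in lineage-negative marrow.

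**Figure D2:**
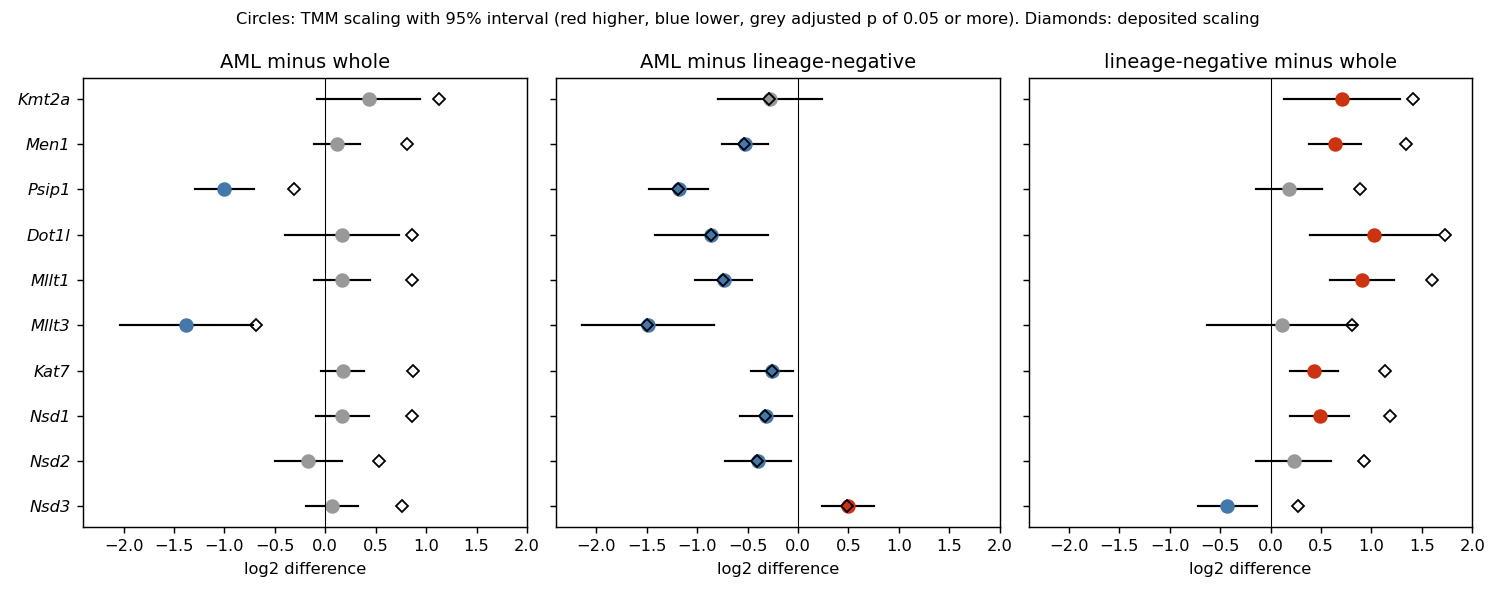
Log2 difference of each gene with its 95% interval (x axis) in the 3 comparisons after TMM scaling, with the values under the deposited scaling beside them. Psip1 and Mllt3 were below 0 in both comparisons with AML after TMM scaling, and the deposited scaling moved the comparisons with whole marrow to the right.

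Men1 encodes menin, the scaffold of the complex (ENSMUSG00000024947, chromosome 19, 6385009 to 6390921, plus strand). Coordinates of the genes are those of the deposited table, and the submitters' processing notes name mm10. Only 861 of 38066 shared genes start at the same base in a GRCm38 annotation, although 37557 have the same length there. The positions are therefore not those of GRCm38, and the build they belong to is not stated. Men1 was 1154, 1301, 1140 and 917 rescaled counts in lineage-negative libraries 1 to 4 and 699, 731, 744 and 694 in whole marrow libraries 1 to 4. In AML the lowest library had 645, the median library 797 and the highest 869. All 7 AML libraries lay below all 4 lineage-negative ones, and 6 of 7 lay above the whole marrow range. The means were 780 ± 72.7 (SD, n = 7) in AML, 717 ± 24.3 (SD, n = 4) in whole and 1128 ± 158 (SD, n = 4) in lineage-negative marrow. Men1 was therefore lower by 0.53 on the log2 scale in AML than in lineage-negative marrow (SE 0.11, limma adjusted p = 0.000553), and 0.64 higher in lineage-negative than in whole marrow (SE 0.12, limma adjusted p = 0.000255). AML and whole marrow did not differ beyond the spread (difference 0.12, 95% interval −0.11 to 0.34, limma adjusted p = 0.422), although the deposited scaling gave 0.81 (limma adjusted p = 0.000868).

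Kmt2a encodes the methyltransferase itself, the gene rearranged in MLL leukaemias (ENSMUSG00000002028, chromosome 9, 44714652 to 44792594, minus strand). It varied widely between libraries of 1 group. Lineage-negative libraries 1 to 4 had 4435, 1593, 2748 and 3445 rescaled counts, and whole marrow libraries 1 to 4 had 1694, 1448, 1325 and 2884. AML ran from 1786 through a median of 2368 to 3016. Lineage-negative library 2 sat inside the whole marrow range and whole marrow library 4 sat inside the lineage-negative range, so these groups overlapped. The mean was 3055 ± 1196 (SD, n = 4) in lineage-negative, 1838 ± 714 (SD, n = 4) in whole and 2388 ± 411 (SD, n = 7) in AML. Kmt2a was 0.71 higher on the log2 scale in lineage-negative than in whole marrow (SE 0.27, limma adjusted p = 0.0362). That call was lost when any of whole marrow libraries 1, 2 and 3 or lineage-negative libraries 1 and 4 was left out (0.50 to 0.70, limma adjusted p = 0.0597 to 0.131). It was also lost with a mean of at least 50, with each pair of groups fitted alone and with background subtracted (0.60 to 0.71, limma adjusted p = 0.0672 to 0.0847). Neither comparison with AML passed: the difference was −0.28 from lineage-negative (95% interval −0.79 to 0.23, limma adjusted p = 0.359) and 0.43 from whole marrow (−0.08 to 0.94, limma adjusted p = 0.178). Leaving out lineage-negative library 2 made the first −0.63 (limma adjusted p = 0.0253) and leaving out lineage-negative library 1 made it −0.069 (limma adjusted p = 0.831), and leaving out whole marrow library 4 made the second 0.66 (limma adjusted p = 0.0497). With the deposited scaling the second was 1.13 (limma adjusted p = 0.00119).

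Psip1 encodes LEDGF, which reads lysine 36 methylation and tethers menin and KMT2A to chromatin (ENSMUSG00000028484, chromosome 4, 83373917 to 83404696, minus strand). It had the smallest adjusted p of the 10 genes in both comparisons with AML. Whole marrow libraries 1 to 4 had 2216, 2092, 2286 and 2217 rescaled counts and lineage-negative libraries 1 to 4 had 2057, 2996, 2529 and 2491. The AML libraries had 784 at the lowest, 1106 at the median and 1353 at the highest. Every AML library lay below every normal library. The mean was 1114 ± 197 (SD, n = 7) in AML, 2203 ± 80.9 (SD, n = 4) in whole and 2518 ± 384 (SD, n = 4) in lineage-negative samples. Psip1 fell by 56.0% from lineage-negative marrow to AML (log2 difference −1.18, SE 0.14, limma adjusted p = 1.55e-06), a call kept in all 27 alternatives run, with differences from −1.35 to −1.10. It fell by 50.1% from whole marrow to AML (−1.002, SE 0.14, limma adjusted p = 2.30e-05), and the deposited scaling was the 1 alternative that lost this call (−0.31, limma adjusted p = 0.178). Between the normal groups the difference was 0.18 (95% interval −0.15 to 0.51, limma adjusted p = 0.338), or 0.88 with the deposited scaling (limma adjusted p = 0.00176).

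Dot1l encodes the only known lysine 79 methyltransferase (ENSMUSG00000061589, chromosome 10, 80591040 to 80631295, plus strand). Lineage-negative libraries 1 to 4 had 3018, 832, 1251 and 1770 rescaled counts, and whole marrow libraries 1 to 4 had 686, 617, 678 and 1125. AML had 639 at the lowest, 825 at the median and 1206 at the highest. The lineage-negative libraries were spread 3.63-fold, and library 2 fell within the AML range. The mean was 1718 ± 948 (SD, n = 4) in lineage-negative, 777 ± 234 (SD, n = 4) in whole and 862 ± 183 (SD, n = 7) in AML. Dot1l was 2.04-fold higher in lineage-negative than in whole marrow (log2 difference 1.03, SE 0.30, limma adjusted p = 0.00784). It was lower in AML than in lineage-negative marrow by a log2 difference of −0.86 (SE 0.27, limma adjusted p = 0.0122), and without lineage-negative library 1 this became −0.54 (limma adjusted p = 0.0649). AML and whole marrow differed by 0.17 (95% interval −0.40 to 0.73, limma adjusted p = 0.656), or 0.86 with the deposited scaling (limma adjusted p = 0.0133).

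Kmt2a and Dot1l had the same highest library in each normal group, library 1 of lineage-negative and library 4 of whole marrow. Both were lowest in library 2 of lineage-negative marrow, but in whole marrow Kmt2a was lowest in library 3 and Dot1l in library 2. The pattern was not limited to this pair: Nsd3 had its highest and lowest values in the same libraries as Kmt2a in both normal groups, and Nsd1 did so in lineage-negative marrow. The ratio of Dot1l to Kmt2a within a library, which no scaling changes, stayed between 0.455 and 0.681 in lineage-negative, between 0.390 and 0.512 in whole marrow and between 0.265 and 0.509 in AML. In AML the highest library was library 7 for Kmt2a and library 4 for Dot1l. Lineage-negative library 1 was also the highest of its group for Mllt1, Nsd1, Nsd2 and Nsd3 and the lowest for Psip1 and Mllt3. Whole marrow library 4 was the highest of its group for Mllt1, Mllt3, Nsd1, Nsd2 and Nsd3. In lineage-negative library 1 the erythroid marker sum was 59680 against 27454 to 30584 in the other libraries of the group, and the neutrophil sum was 175300 against 99675 to 144721. Their part in these values was not tested.

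**Figure D3:**
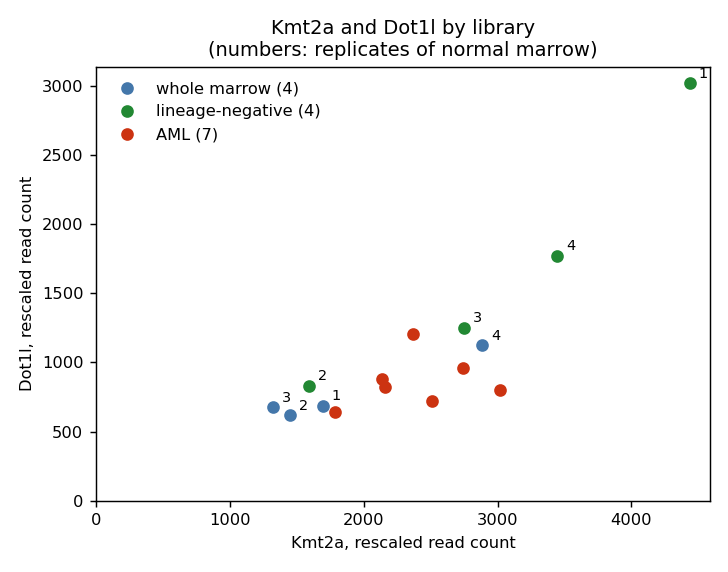
Dot1l (y axis) against Kmt2a (x axis) in rescaled read counts, 1 point per library, with replicate numbers beside the normal libraries. Lineage-negative library 1 lies at the top right with 4435 and 3018, and lineage-negative library 2 lies near the whole marrow libraries with 1593 and 832.

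The sequences before the start sites of this pair are shown because these genes varied most among the lineage-negative libraries, with coefficients of variation of 39.1% for Kmt2a and 55.2% for Dot1l. Each is the 250 bases upstream of the RefSeq gene start on GRCm38.p6, 5′ to 3′ on the gene's strand, with matches to the GC box GGGCGG or its complement CCGCCC and to CCAAT or its complement ATTGG in capitals. The windows are chr9:44881290-44881539 on the minus strand for Kmt2a and chr10:80754953-80755202 on the plus strand for Dot1l.
Kmt2a: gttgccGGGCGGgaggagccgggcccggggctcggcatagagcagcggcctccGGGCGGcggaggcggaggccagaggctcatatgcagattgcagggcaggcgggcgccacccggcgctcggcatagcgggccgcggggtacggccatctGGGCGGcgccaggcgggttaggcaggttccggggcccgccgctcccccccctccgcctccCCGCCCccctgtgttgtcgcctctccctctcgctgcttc
Dot1l: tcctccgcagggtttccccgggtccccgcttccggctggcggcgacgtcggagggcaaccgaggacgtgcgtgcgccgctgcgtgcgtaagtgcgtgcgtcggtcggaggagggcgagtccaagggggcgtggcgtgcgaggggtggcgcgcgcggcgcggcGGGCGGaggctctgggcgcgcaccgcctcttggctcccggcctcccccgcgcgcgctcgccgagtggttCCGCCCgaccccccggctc
The Kmt2a window held 29 CG dinucleotides and 4 GC boxes, and the Dot1l window held 44 and 2. Neither held CCAAT. Among 32851 windows of the same length the median was 6 CG dinucleotides, 32.7% held a GC box and 33.8% held CCAAT. Of the other genes, Men1 and Kat7 had 8 CG dinucleotides each. Windows were found for 6 of the 10 genes. A match in these letters is a description of the sequence and not a binding site.

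Mllt1 encodes ENL (ENSMUSG00000024212, chromosome 17, 57199611 to 57242415, minus strand). Like Men1, it was highest in lineage-negative marrow. Lineage-negative libraries 1 to 4 had 1533, 1283, 1181 and 1075 rescaled counts, and whole marrow libraries 1 to 4 had 560, 642, 685 and 826. AML had 603 at the lowest, 766 at the median and 892 at the highest. The lineage-negative libraries lay above all 11 others. Means were 759 ± 94.96 (SD, n = 7) in AML, 678 ± 111 (SD, n = 4) in whole and 1268 ± 196 (SD, n = 4) in lineage-negative marrow. Mllt1 fell by 40.0% from lineage-negative marrow to AML (log2 difference −0.74, SE 0.13, limma adjusted p = 0.000159) and was 1.87-fold higher in lineage-negative than in whole marrow (log2 difference 0.90, SE 0.15, limma adjusted p = 6.97e-05). Against whole marrow the AML difference was 0.17 (95% interval −0.11 to 0.45, limma adjusted p = 0.347), or 0.86 with the deposited scaling (limma adjusted p = 0.00178).

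Mllt3 encodes AF9, the paralog of ENL, and is known for a role in keeping blood stem cells (ENSMUSG00000028496, chromosome 4, 87688162 to 87951601, minus strand). It was the least abundant of the 10 genes and the most variable within AML. AML libraries 1 to 7 had 102, 228, 338, 118, 182, 433 and 177 rescaled counts, a 4.26-fold spread. Whole marrow libraries 1 to 4 had 464, 479, 518 and 644, and lineage-negative libraries 1 to 4 had 419, 585, 588 and 700. All AML libraries lay below whole marrow, and all but library 6 lay below lineage-negative marrow. Means were 225 ± 120 (SD, n = 7), 526.3 ± 82.0 (SD, n = 4) and 573 ± 116 (SD, n = 4). Mllt3 fell by 64.3% from lineage-negative marrow to AML (log2 difference −1.49, SE 0.31, limma adjusted p = 0.000642), a call kept in all 27 alternatives. It fell by 61.5% from whole marrow to AML (−1.38, SE 0.31, limma adjusted p = 0.00215), and with the deposited scaling by a log2 difference of −0.68 that missed the threshold (limma adjusted p = 0.0724). The normal groups differed by 0.11 (95% interval −0.63 to 0.85, limma adjusted p = 0.806). Whether the paralogs differed in their contrast between the normal groups was not tested, and their ratio in each library is given below.

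The upstream windows of this paralog pair are shown because the ratio of their levels in whole marrow lay apart from that in the other groups. They are chr17:56935389-56935638 for Mllt1 and chr4:88033408-88033657 for Mllt3, both on the minus strand, in the same build and with the same capitals.
Mllt1: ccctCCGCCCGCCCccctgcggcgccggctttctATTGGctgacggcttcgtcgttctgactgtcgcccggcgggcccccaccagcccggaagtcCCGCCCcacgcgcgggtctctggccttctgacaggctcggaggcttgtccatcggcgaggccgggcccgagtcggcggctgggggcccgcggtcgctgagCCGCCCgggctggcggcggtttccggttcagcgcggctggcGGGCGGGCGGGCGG
Mllt3: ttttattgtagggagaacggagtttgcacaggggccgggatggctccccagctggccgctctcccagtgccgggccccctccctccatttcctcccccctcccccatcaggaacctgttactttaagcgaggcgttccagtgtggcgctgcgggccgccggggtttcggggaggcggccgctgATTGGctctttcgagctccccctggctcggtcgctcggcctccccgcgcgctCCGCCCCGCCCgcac
The Mllt1 window held 37 CG dinucleotides, 7 GC boxes counted with overlaps and 1 CCAAT, and the Mllt3 window held 23, 2 and 1.

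Kat7 encodes HBO1, the acetyltransferase that has been placed beside menin in leukaemia stem cell maintenance (ENSMUSG00000038909, chromosome 11, 95165085 to 95201072, minus strand). It had the tightest lineage-negative values, with 2080, 2121, 2018 and 1965 rescaled counts in libraries 1 to 4. Whole marrow libraries 1 to 4 had 1428, 1609, 1549 and 1492, and AML had 1494 at the lowest, 1629 at the median and 2055 at the highest. The lineage-negative libraries all lay above the whole marrow ones, and 6 of 7 AML libraries lay below lineage-negative marrow. Means were 1722 ± 213 (SD, n = 7) in AML, 1520 ± 77.5 (SD, n = 4) in whole and 2046 ± 68.5 (SD, n = 4) in lineage-negative marrow. Kat7 was 1.35-fold higher in lineage-negative than in whole marrow (log2 difference 0.43, SE 0.11, limma adjusted p = 0.0037). The difference of AML from lineage-negative marrow was −0.26 (SE 0.10, limma adjusted p = 0.0405). It missed the threshold when any of AML libraries 2, 4, 6 and 7, whole marrow library 3 or lineage-negative library 1 was left out (limma adjusted p = 0.0505 to 0.102) and with the deposited scaling (limma adjusted p = 0.266). AML minus whole marrow was 0.17 (95% interval −0.04 to 0.38, limma adjusted p = 0.189), or 0.87 with the deposited scaling (limma adjusted p = 0.000522).

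Nsd1 encodes the methyltransferase whose catalytic end is in the fusion (ENSMUSG00000021488, chromosome 13, 55357595 to 55466138, plus strand). Lineage-negative libraries 1 to 4 had 8948, 6242, 7090 and 8340 rescaled counts, and whole marrow libraries 1 to 4 had 4852, 5207, 5162 and 6593. AML had 5214 at the lowest, 6178 at the median and 6877 at the highest, inside or just above the whole marrow range. Means were 6101 ± 520 (SD, n = 7) in AML, 5454 ± 776 (SD, n = 4) in whole and 7655 ± 1219 (SD, n = 4) in lineage-negative marrow. Nsd1 was 1.40-fold higher in lineage-negative than in whole marrow (log2 difference 0.49, SE 0.14, limma adjusted p = 0.00688). The AML difference from lineage-negative marrow was −0.32 (SE 0.12, limma adjusted p = 0.0403). It missed the threshold when any of AML libraries 1, 3, 5 and 6 or lineage-negative libraries 1 and 4 was left out (limma adjusted p = 0.0526 to 0.125), with the deposited scaling (limma adjusted p = 0.212) and with array weights (−0.25, limma adjusted p = 0.0631). The AML difference from whole marrow was 0.17 (95% interval −0.09 to 0.43, limma adjusted p = 0.307), or 0.86 with the deposited scaling (limma adjusted p = 0.00124).

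Nsd2 encodes another member of the family, overexpressed by translocation in some myelomas (ENSMUSG00000057406, chromosome 5, 33978069 to 34055319, plus strand). Of the NSD genes it passed the test in the fewest comparisons, 1 of 3. Lineage-negative libraries 1 to 4 had 5510, 3854, 3847 and 4309 rescaled counts and whole marrow libraries 1 to 4 had 3250, 3480, 3730 and 4426. AML had 2206 at the lowest, 3642 at the median and 3949 at the highest. The lowest was AML library 3, whose sum over 12 cell cycle genes, 31243, was also the lowest of the AML libraries, the others having 49819 to 67245. The part of cycling cells in this value was not tested. Means were 3347 ± 613 (SD, n = 7) in AML, 3722 ± 509 (SD, n = 4) in whole and 4380 ± 784 (SD, n = 4) in lineage-negative marrow. The AML difference from lineage-negative marrow was −0.40 (SE 0.16, limma adjusted p = 0.0431), and it missed the threshold without any of AML libraries 1, 3, 6 and 7, whole marrow library 3 or lineage-negative library 1 (−0.40 to −0.28, limma adjusted p = 0.0519 to 0.157). It also missed with the deposited scaling (−0.40, limma adjusted p = 0.158) and with array weights (−0.23, limma adjusted p = 0.123). AML minus whole marrow was −0.17 (95% interval −0.50 to 0.16, limma adjusted p = 0.427) and turned to 0.53 with the deposited scaling (limma adjusted p = 0.0466). Lineage-negative minus whole marrow was 0.23 (−0.14 to 0.60, limma adjusted p = 0.286), or 0.93 with the deposited scaling (limma adjusted p = 0.00346).

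Nsd3 encodes the methyltransferase of this family that also has a short isoform without the catalytic domain (ENSMUSG00000054823, chromosome 8, 26091617 to 26209694, plus strand), and the counts do not separate its isoforms. It alone of the 10 genes was lower in lineage-negative marrow than in AML. Lineage-negative libraries 1 to 4 had 2607, 1849, 1927 and 2300 rescaled counts, and whole marrow libraries 1 to 4 had 2844, 2791, 2562 and 3463. AML had 2512 at the lowest, 3047 at the median and 3458 at the highest, and 6 of 7 AML libraries lay above every lineage-negative library. Means were 3047 ± 343 (SD, n = 7) in AML, 2915 ± 385 (SD, n = 4) in whole and 2171 ± 351 (SD, n = 4) in lineage-negative marrow. Nsd3 was 1.41-fold higher in AML than in lineage-negative marrow (log2 difference 0.49, SE 0.12, limma adjusted p = 0.00275), with differences from 0.35 to 0.59 over 27 alternatives, all past the threshold. It was lower in lineage-negative than in whole marrow by a log2 difference of −0.43 (SE 0.14, limma adjusted p = 0.0144). That direction turned with the deposited scaling (0.27, limma adjusted p = 0.269), and the call was lost without lineage-negative library 2 or 3 (limma adjusted p = 0.118 and 0.107). AML and whole marrow differed by 0.06 (95% interval −0.20 to 0.33, limma adjusted p = 0.712), or 0.76 with the deposited scaling (limma adjusted p = 0.00168).

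Ratios between the genes within a library are free of the scaling and are given as descriptions without a test. The ratio of Psip1 to Men1 was 1.43 ± 0.241 (SD, n = 7) in AML, 3.07 ± 0.150 (SD, n = 4) in whole and 2.25 ± 0.383 (SD, n = 4) in lineage-negative samples. Its 3 ranges, 1.05 to 1.71, 2.86 to 3.19 and 1.78 to 2.72, did not overlap. Each AML library thus had fewer Psip1 counts per Men1 count than every normal library, although Psip1 exceeded Men1 in each. The counts in these ratios were not corrected for exon length. The ratio of Mllt3 to Mllt1 was 0.747 to 0.829 in whole marrow, above all lineage-negative libraries (0.273 to 0.651) and all AML libraries (0.132 to 0.604). In AML libraries 3 and 6 this ratio was 0.561 and 0.604, and in the other AML libraries it was 0.132 to 0.325. The ratio of Nsd3 to Nsd1 was 0.272 to 0.296 in lineage-negative marrow, 0.406 to 0.584 in AML and 0.496 to 0.586 in whole marrow. It was lower in all 4 lineage-negative libraries than in every other library, whereas AML and whole marrow overlapped. The ratio of Nsd2 to Nsd1 was lower in AML (0.423 to 0.639) and lineage-negative marrow (0.517 to 0.617) than in whole marrow (0.668 to 0.723). Both NSD ratios divide by Nsd1, and whether reads of the fusion transcript were counted under Nsd1 in AML was not analysed. The ratio of Men1 to Kmt2a overlapped between all groups.

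**Figure D4:**
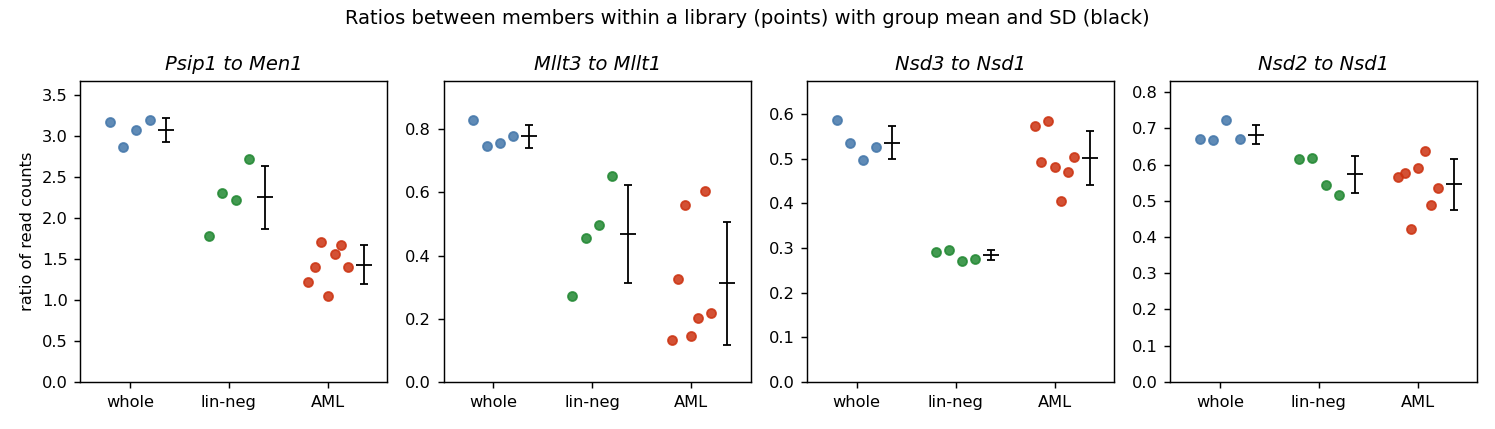
Ratio of read counts between 2 genes within each library (y axis, from 0) by group, for Psip1 to Men1, Mllt3 to Mllt1, Nsd3 to Nsd1 and Nsd2 to Nsd1, with mean and SD in black. Psip1 to Men1 separates the 3 groups, and Nsd3 to Nsd1 is 0.272 to 0.296 in all lineage-negative libraries.

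Per kilobase of exon, the order of the levels also differed between groups. In AML, Nsd1 was highest with a mean of 349 rescaled counts per kilobase, and Kat7 followed with 311, the 2 ranges overlapping. Psip1 (219), Men1 (203), Nsd2 (199), Mllt1 (194), Nsd3 (185) and Kmt2a (143) came next, and each overlapped with its neighbour in this order. Dot1l followed at 99.0, overlapping with Kmt2a, and Mllt3 at 18.8 lay apart below it. In whole marrow Psip1 was highest at 433, apart from Nsd1 at 312 and Kat7 at 274, and Mllt3 was lowest at 43.8. In lineage-negative marrow Psip1 at 496, Nsd1 at 438 and Kat7 at 370 overlapped with their neighbours, and Nsd3 at 131 was the ninth, above Mllt3 at 47.7 alone. Psip1 was thus the first in both normal groups and the third in AML.

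Among 16 other subunits of KMT2 complexes, 8 were lower (50%, beside 25.5% of all genes) and 1 was higher (6.25%, beside 26.1%) in AML than in lineage-negative marrow, with a median of −0.34 beside 0.03 over all genes. Ash2l, a core subunit shared by all such complexes, had 845 rescaled counts in AML and 1517 in lineage-negative marrow (log2 difference −0.85, limma adjusted p = 6.56e-06), and Dpy30, another shared subunit, differed by −0.90 (limma adjusted p = 0.000862). Kdm6a, a lysine 27 demethylase of the KMT2C and KMT2D complexes, was higher in AML by 0.50 (limma adjusted p = 0.0373, or 0.112 with the deposited scaling). Under that scaling 0 of the 16 were higher and 7 lower, beside 23.5% and 21.6% of all genes. Against whole marrow 2 of the 16, Hcfc2 (−0.70, limma adjusted p = 0.00319) and Paxip1 (−0.47, limma adjusted p = 0.0131), were lower in AML, a share of 12.5% beside 20.9% of all genes. None was higher by limma (0, or 2 at an unadjusted p under 0.05), and the deposited scaling gave 13 higher and 0 lower, beside 51.5% and 12.0% of all genes. Between the normal groups 7 were higher (43.8%, beside 24.9%) and 1 was lower (6.25%, beside 31.5%) in lineage-negative marrow. The deposited scaling gave 12 and 0, beside 44.3% and 18.9% of all genes. Setd1a, another lysine 4 methyltransferase, differed most at 1.31 (limma adjusted p = 0.000171).

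Of 19 genes of the DOT1L complex, the super elongation complex and the polymerase-associated factor PAF, 8 were lower (42.1%, beside 25.5% of all genes) and 2 higher (10.5%, beside 26.1%) in AML than in lineage-negative marrow. The deposited scaling gave 6 lower and 2 higher, beside 21.6% and 23.5% of all genes. Aff3, a scaffold of the elongation complex, was lower by a log2 difference of −1.36 (limma adjusted p = 7.67e-05), and the elongation factor Ell2 by −1.11 (limma adjusted p = 0.000591). Ell2 was also lower in AML than in whole marrow, at −1.91 (limma adjusted p = 6.38e-06) and −1.21 with the deposited scaling. In that comparison 5 were lower (26.3%, beside 20.9%) and 2 higher (10.5%, beside 16.9%), the latter being Mllt6 (0.81, limma adjusted p = 0.00493) and the kinase gene Cdk9 (0.55, limma adjusted p = 0.0148), and the deposited scaling gave 1 lower and 12 higher (63.2%, beside 51.5%). Ctr9, a PAF subunit, was higher in lineage-negative than in whole marrow by 0.93 (limma adjusted p = 9.88e-06), where 4 were higher and 4 lower (21.1% each, beside 24.9% and 31.5% of all genes). The deposited scaling gave 15 higher and 2 lower there, 78.9% and 10.5%, beside 44.3% and 18.9%.

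Of 11 subunits of the HBO1 and MOZ acetyltransferase complexes, 3 were lower and 2 higher in AML than in lineage-negative marrow. These shares, 27.3% and 18.2%, lay near and below the 25.5% and 26.1% of all genes. The scaffold genes Jade3 and Jade1 differed by −1.61 (limma adjusted p = 6.15e-07) and −0.83 (limma adjusted p = 6.06e-06). Brpf1, a scaffold of the MOZ complex, differed by 0.40 (limma adjusted p = 0.0158, or 0.1004 with the deposited scaling). Under that scaling 0 of the 11 were higher and 3 lower, beside 23.5% and 21.6% of all genes. Against whole marrow 4 were lower in AML, among them Brpf3 at −1.26 (limma adjusted p = 0.00494), and 2 were higher (36.4% and 18.2%, beside 20.9% and 16.9% of all genes), whereas the deposited scaling gave 0 lower and 7 higher (63.6%, beside 51.5%). Lineage-negative marrow had 4 higher and 1 lower than whole marrow (36.4% and 9.09%, beside 24.9% and 31.5%). With the deposited scaling 10 were higher and 0 lower, 90.9% higher beside 44.3% of all genes.

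Of 19 other writers, erasers and readers of lysine 36 methylation, 8 were lower (42.1%, beside 25.5% of all genes) and 2 higher (10.5%, beside 26.1%) in AML than in lineage-negative marrow. Dnmt3b, a DNA methyltransferase that reads this mark, was at 245 rescaled counts in AML, 898 in lineage-negative and 183 in whole marrow. It was lower in AML than in lineage-negative marrow by −1.91 (limma adjusted p = 3.77e-07) and higher in lineage-negative than in whole marrow by 2.30 (limma adjusted p = 2.79e-07). Smyd2, a lysine methyltransferase, had 225, 823 and 171 in the same order of groups, with differences of −1.90 (limma adjusted p = 2.97e-07) and 2.28 (limma adjusted p = 2.30e-07). Phf1, a reader of the mark, went the other way and was higher in AML than in lineage-negative marrow by 1.51 (limma adjusted p = 1.36e-06), as was the demethylase gene Kdm4c by 0.60 (limma adjusted p = 0.000178). Against whole marrow 1 was lower (Hdgf) and 2 were higher in AML, 5.26% and 10.5% beside 20.9% and 16.9% of all genes. The deposited scaling gave 16 higher and 0 lower, 84.2% higher beside 51.5%. Lineage-negative marrow had 9 higher and 2 lower than whole marrow (47.4% and 10.5%, beside 24.9% and 31.5%), and 17 and 1 with the deposited scaling (89.5% and 5.26%, beside 44.3% and 18.9%).

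Of 10 genes known as targets of menin and KMT2A or of NUP98 fusions, 6 were lower in AML than in lineage-negative marrow (60%, beside 25.5% of all genes) and none was higher by limma (0, also at an unadjusted p under 0.05). Meis1, a homeobox gene that is also in the progenitor marker list, had 222 rescaled counts in AML and 923 in lineage-negative marrow (log2 difference −2.09, limma adjusted p = 4.48e-07). Hoxa9 had 127 and 340 (−1.49, limma adjusted p = 0.000546). Nkx2-3 averaged 1.28 in AML, less than 3 reads are worth in these libraries, so no fold is given. Against whole marrow 2 were higher in AML: Flt3, a receptor kinase gene, with 2618 against 380 (2.63, limma adjusted p = 5.88e-06), and Hoxa7 (1.24, limma adjusted p = 0.0012). In that comparison 2 were lower, so that each direction held 20% of the list beside 16.9% higher and 20.9% lower of all genes. The deposited scaling gave 6 higher and 1 lower (60% and 10%, beside 51.5% and 12.0%). Lineage-negative marrow had 5 higher and 1 lower than whole marrow (50% and 10%, beside 24.9% and 31.5%), and 9 and 0 with the deposited scaling (90% higher, beside 44.3%), led by Cdk6, a cell cycle kinase gene, at 2.29 (limma adjusted p = 1.28e-06).

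**Figure D5:**
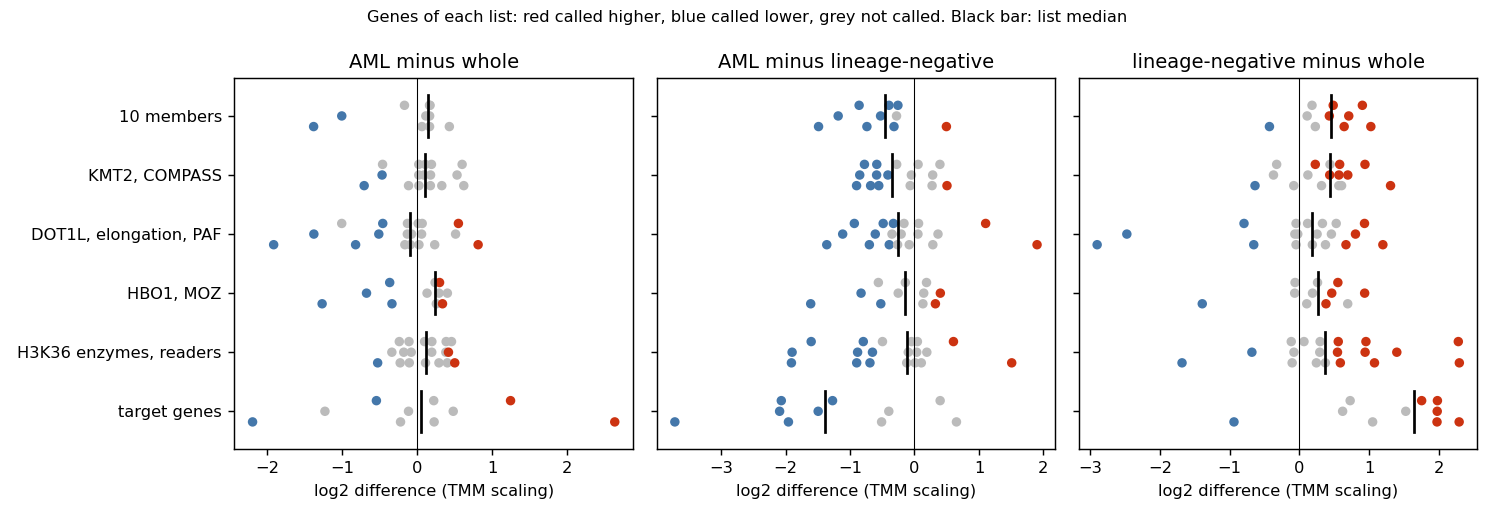
Log2 difference (x axis, TMM scaling) of each gene in the list of 10 and in 5 lists of related genes, in the 3 comparisons, with genes passing an adjusted p of 0.05 in red (higher) or blue (lower) and the list median as a black bar. The target genes had a median of −1.38 for AML minus lineage-negative and 1.64 for lineage-negative minus whole marrow.

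The genes whose log2 levels ran most like each of the 10 were found by Pearson correlation over the 15 samples among 10247 protein-coding genes with a mean of at least 100. The samples share 3 groups, so the values describe these libraries only. Psip1 was nearest to Smarca5 (r = 0.980) and Ssbp3 (0.979), and Mllt1 to Wdr90 (0.980) and Wwc2 (0.976). Dot1l was nearest to Srrm1 (0.969) and Phactr4 (0.968), Men1 to Ahcy (0.964) and Rcc2 (0.954), and Nsd1 to Ep400 and Ankrd17 (both 0.955). Kmt2a was nearest to Ubr4 (0.952) and Srrm2 (0.948), Nsd3 to 0610030E20Rik (0.946) and Prdm2 (0.944), and Nsd2 to Ncapd2 (0.940) and Espl1 (0.934). Mllt3 (Ubxn2a, 0.924, and Samd1, 0.912) and Kat7 (Zc3hc1 and Ivd, both 0.915) had the lowest values.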

How the data were processed

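Per the labels, TRIzol was used for RNA and a TruSeq Stranded Total RNA kit for libraries. The deposited table holds a signal, estimated read counts that the authors divided by a DESeq2 size factor per library (poscounts, per the file's name). STAR, Partek, DESeq2 and mm10 are named in the submitters' processing notes, without versions or roles. Between 81.9% and 87.2% of low values were whole multiples of a step (tolerance 0.02), so whole reads were not recovered and no count model was run; depth was estimated as the total divided by the step, and 3 reads are the floor. Genes with at least 10 in at least 4 samples were kept. Values were rescaled by TMM (trims 0.3 and 0.05), log2-transformed with a pseudocount of 1 and fitted as 3 group means with limma 3.58.1 in R 4.3.3 (trend, two-sided, Benjamini-Hochberg over 18941 genes); a fold change on this scale understates low genes. On simulated data for AML minus whole marrow (17731 genes), 189 of 200 genes given a change were called, and 7 of the others. The simulation gave every gene the same spread setting and whole marrow a uniform scaling fault. It changed far fewer genes than were called in the data, so these rates do not carry over to the comparisons above. The 10 genes, the lists, the ratios and the naming rule (all 10 genes; from each list up to 2 of the largest and 2 of the smallest called differences per comparison; the 2 genes nearest by correlation) were chosen with earlier results of these data known. From the named list genes, examples are printed. Exonic lengths came from GENCODE vM21 on GRCm38, and upstream sequences from RefSeq on GRCm38.p6, which held 6 of the 10 genes. Alternatives covered scaling, pseudocounts of 0.1 and 5, filters, variance models, background subtraction, the replicate number as a block and leaving out each library.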

Additional observations from a re-analysis of the deposited data

Results flagged for a closer look

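Among 48 groups of 4 or 7 libraries examined for a library far from the others, 2 stood out, and chance picks about 1 in 20 groups. Dot1l was 1125 rescaled counts in whole marrow library 4, with 686 in the nearest library of the group. The ratio of Nsd2 to Nsd1 was 0.723 in whole marrow library 3, with 0.671 in the nearest library.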

How the results depend on the processing

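Of the differences of the 10 genes recomputed under 27 alternatives, 48 lost and 13 gained a call without changing direction. Another 7 reversed, and the rest kept their direction and their side of the threshold. Among the 7, Nsd2 for AML minus whole marrow also gained a call with the deposited scaling. Nsd3 for lineage-negative minus whole marrow also lost its call with that scaling. Of the ratios 143 stayed within the spread and 1 moved (Mllt3 to Mllt1 in whole marrow, 0.719 with background subtraction). The lower calls in AML against lineage-negative marrow went from 8 to 5 with the deposited scaling, with all genes kept, with each pair of groups fitted alone and with the replicate block. Leaving out 1 library gave 4 to 9 (4 without lineage-negative library 1, 5 without AML library 6). Beside these, all genes called lower were 4832 in the main fit, 4094 with the deposited scaling and 4379 with the replicate block. They were 4495 to 4868 leaving out 1 library. The 2 other filters changed how many genes were tested, so their counts below are not shares of the 18941 of the main fit. With all genes kept, the 38315 genes were tested except 134 that were 0 in every sample. For AML minus whole marrow, all genes called higher went from 3205 to 9747 with the deposited scaling and 2114 with a mean of at least 50 (2375 to 3512 leaving out 1 library). Genes called lower went from 3950 to 2273 with the deposited scaling, to 14997 with all genes kept and to 2224 with a mean of at least 50. Leaving out 1 library gave 2598 to 4054 lower, the lowest without whole marrow library 1. Of the 10 genes, those higher went from 0 to 8 with the deposited scaling, 1 with all genes (Kat7), 1 with array weights (Kmt2a) and 0 to 1 leaving out a library (Kmt2a without whole marrow library 4), and those lower from 2 to 0 with the deposited scaling. For lineage-negative minus whole marrow, genes called higher went from 4716 to 8393 with the deposited scaling, and genes called lower from 5965 to 3589, to 16113 with all genes and 3748 with a mean of at least 50. The 1 gene lower, Nsd3, went to 0 with the deposited scaling and with all genes, and to 0 to 1 leaving out a library (0 without lineage-negative library 2 or 3). Reversed differences for AML minus whole marrow were Men1 at −0.0019 (mean of at least 50) and −0.012 (background subtracted), Nsd2 at 0.53 (deposited scaling), and Nsd3 at −0.054 (mean of at least 50) and −0.062 (background subtracted), and from −0.0096 to 0.14 leaving out 1 library (lowest without whole marrow library 3). For lineage-negative minus whole marrow Nsd3 reversed to 0.27 (deposited scaling). The causes were not tested beyond what each alternative changes by construction. Replicate numbers are shared by the groups, and deviations of libraries with the same number had 12 correlations from −0.265 to 0.167, 2 above 0.1. Libraries with different numbers were not compared, so these values cannot show whether samples were paired. With the replicate block, 4701 genes were higher and 4379 lower for AML minus lineage-negative, 2921 and 3752 for AML minus whole, and 4656 and 6005 for lineage-negative minus whole marrow, and Kat7, Nsd1 and Nsd2 missed the threshold for AML minus lineage-negative marrow (limma adjusted p = 0.0901, 0.0734 and 0.0521). Whole marrow had the shallowest libraries and the most background, which limits low genes there.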
